A study of Mus musculus with 4 samples.

Results

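The 34 genes described here encode core translation factors: 5 elongation factors, 6 factors of start codon choice and initiator tRNA delivery, 12 subunits of eIF3, 7 proteins of cap binding, RNA unwinding and poly(A) binding, 2 inhibitors of eIF4E, eIF5A and the translationally controlled tumour protein Tpt1. They were taken by Ensembl gene ID from a table of 53465 IDs, with the symbols that go with that list of IDs, and all 34 were counted and passed the filter on low counts. The table holds ribosome footprints, the short RNA fragments that ribosomes shield from nuclease, in 4 libraries of MLE-12 cells. MLE-12 is a single immortalised line of mouse lung epithelium, used to stand for alveolar type 2 cells; the labels give the tissue as lung. Control replicates 1 and 2 came from cells without 1-nitropyrene, and 1-nitropyrene replicates 2 and 3 from cells kept for 12 h in 5 µM of this nitrated polycyclic compound of diesel exhaust. The solvent given to control cells, if any, is not given in the sources used here. Cycloheximide, which stops ribosomes in place on the mRNA, was in the wash of all 4 samples. Nothing says that the samples of a group were separate cultures, so the p-values below cover the spread among these 4 samples and nothing more, and that spread may be technical.

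Translation starts when eIF2 brings the initiator tRNA to the small ribosomal subunit, eIF3 holds the complex together, and the eIF4 proteins bind the capped and unwound mRNA. Once the start codon is found, eIF5 and eIF5B commit the ribosome to it, and the eEF1 and eEF2 factors then drive each round of elongation. Many mRNAs of this machinery, those of the elongation factors above all, begin with a run of pyrimidines, the 5′ terminal oligopyrimidine or TOP start, through which the kinase mTOR adjusts their translation. A footprint count reflects both the amount of an mRNA and how densely ribosomes occupy it. With no RNA libraries used here, these cannot be told apart, nor can fewer cells and less RNA per cell.

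Because the TOP start is what this gene group is known for, the bases around the annotated transcription starts were examined first. RefSeq promoters (GRCm38.p6, the assembly of the mm10 build) were found by symbol for 26 of the 34 genes, at 32 starts. The motif searched was a C followed by at least 4 letters that are each C or T, on the mRNA strand only, with its C within 10 bases of the start. It was present at 7 of the 26 genes (26.9%), against 33.3% of the 27025 genes in the table (29.7% of 32851 promoters). Within 5 bases it was present at 6 of the 26 (23.1%), against 19.7% of genes (17.1% of promoters), so the order of the 2 shares turns with the window and nothing is read from it. The windows below run from 15 bases before the annotated start to 15 bases after it, so their second part is the beginning of the first exon, and capitals mark the motif. They show 4 starts that hold it and then 4 that do not. All of these genes but Eif2s3x passed the test for a change given below.
Eef1a1: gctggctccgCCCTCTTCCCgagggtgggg
Eif3f: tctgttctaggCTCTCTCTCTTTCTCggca
Eif2s3x: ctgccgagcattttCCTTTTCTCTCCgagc
Eif4g1: cgccagcgcagctccgCCCTCTgcgccggt
Eef2: tataaaaggccgggcgttgacgtcagcggt
Eif1: gcgctggcgtcacaggggcggctatataag
Eif5: gagatcgacgtgcatgcgagccaatgacaa
Tpt1: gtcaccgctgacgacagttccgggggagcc

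The 4 windows with the motif lie at chr9:78481710-78481739 (- strand), chr7:108934400-108934429 (+ strand), chrX:94212637-94212666 (- strand) and chr16:20672712-20672741 (+ strand). Those without it lie at chr10:81176616-81176645 (+ strand), chr11:100319934-100319963 (+ strand), chr12:111538086-111538115 (+ strand) and chr14:75845241-75845270 (+ strand). An annotated start can differ from the start used in these cells, so a missing motif says only that these letters are not near the annotated base. The longest run, of 15 bases, was at Eif3f, followed by 12 at Eif2s3x and 10 at Eef1a1.

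Footprints of 14 translation factors rose and those of 3 fell in 1-nitropyrene cells, while the other 17 did not pass the test (edgeR quasi-likelihood test; adjusted p, after Benjamini-Hochberg over the whole table, under 0.05). The rises were modest and lay between 1.13-fold for Eif4g2 and 1.78-fold for Eif1. The 3 that fell were Eif5, Eif2s2 and Tpt1, which were 1.46-, 1.38- and 1.20-fold lower. Of the 7719 genes tested, 17.3% were called, 9.68% as higher and 7.58% as lower, against 41.2% of the factors as higher and 8.82% as lower. The median log2 fold change was 0.23 over the factors and -0.0076 over all genes tested, and 28 of the 34 had a positive value, against 49.2% of all genes tested.

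These factors are among the most deeply counted genes, and deep genes are called more often and more often as higher. A background of genes of like depth is therefore given beside the overall one. In the top 10% of genes by mean count (228.5 counts or more), 49.7% of 772 genes were called, 37.4% as higher and 12.3% as lower. Of the 21 factors at that depth, 16 were called, 14 as higher and 2 as lower. The median log2 fold change of those 772 genes was 0.14. In the top 25% (92 counts or more) 36.4% of 1933 genes were called, against 17 of the 27 factors there. Positive values made up 59.9% of those 1933 genes, a share not computed for the 27 factors alone. None of the 7 factors below that depth was called with edgeR, limma-voom or DESeq2; 1 of them, Eef1g, had an unadjusted p under 0.05.

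**Figure D1:**
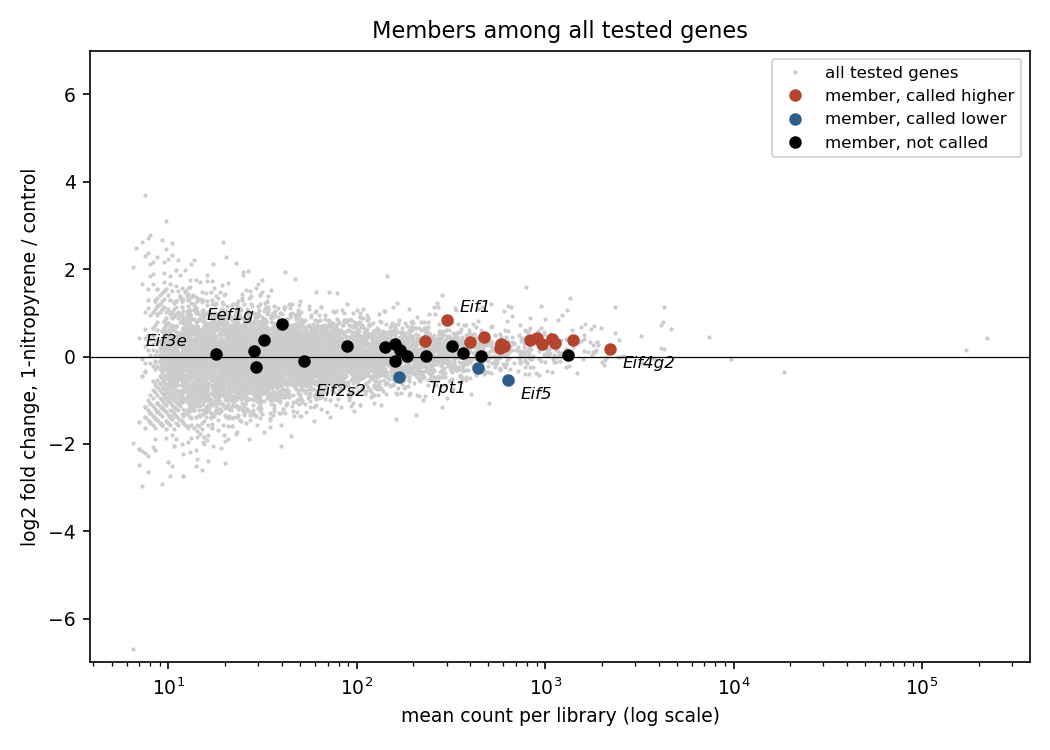
Each grey point is a gene tested, with its mean count per library on a log axis and its log2 fold change of 1-nitropyrene over control; large points are the 34 factors. The factors called higher (red) sit at mean counts of 229 and up and at log2 fold changes of 0.17 to 0.84, and Eif5, Eif2s2 and Tpt1 (blue) lie below 0.

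For 25 of the factors (73.5%) the CPM values of control and treated libraries were fully apart, 22 with treatment on top and 3 below. This was so for 57.3% of all genes tested, 28.6% with treatment on top and 28.7% below. The share was not computed for genes of like depth, which lean towards higher values. CPM here means counts per 1e6 after TMM, a scaling that assumes that most genes do not change. The direction of small changes rests on that scaling. With total counts in place of TMM the median of all genes tested shifted by -0.16, to -0.17, the factors' median fell to 0.064, and 7 factors were called higher and 4 lower, against backgrounds of 5.31% and 14.2%. A change of scaling moves all genes by nearly the same amount. The gap between the factors' median and that of all genes, 0.23 with either scaling, was therefore fixed in advance. It is no check on the calls.

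As a share of all counts the 34 genes held 1.318% and 1.314% of control replicates 1 and 2 and 1.356% and 1.370% of 1-nitropyrene replicates 2 and 3. The treated shares lay above both controls (exact two-sided permutation test, p = 0.33, the smallest that 2 against 2 libraries allow). A pair of gene IDs, which could not be named, took 29.7% ± 0.0636 of control counts and 32.9% ± 0.0963 of 1-nitropyrene counts (SD, n = 2 each). Outside that pair the share of the 34 factors was 1.87% ± 0.00268 and 2.03% ± 0.0177 (SD, n = 2 each). The factors' summed level was 12619 ± 37.6 CPM in control and 14611 ± 155 CPM in 1-nitropyrene cells (SD, n = 2 each), a ratio of 1.16.

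**Figure D2:**
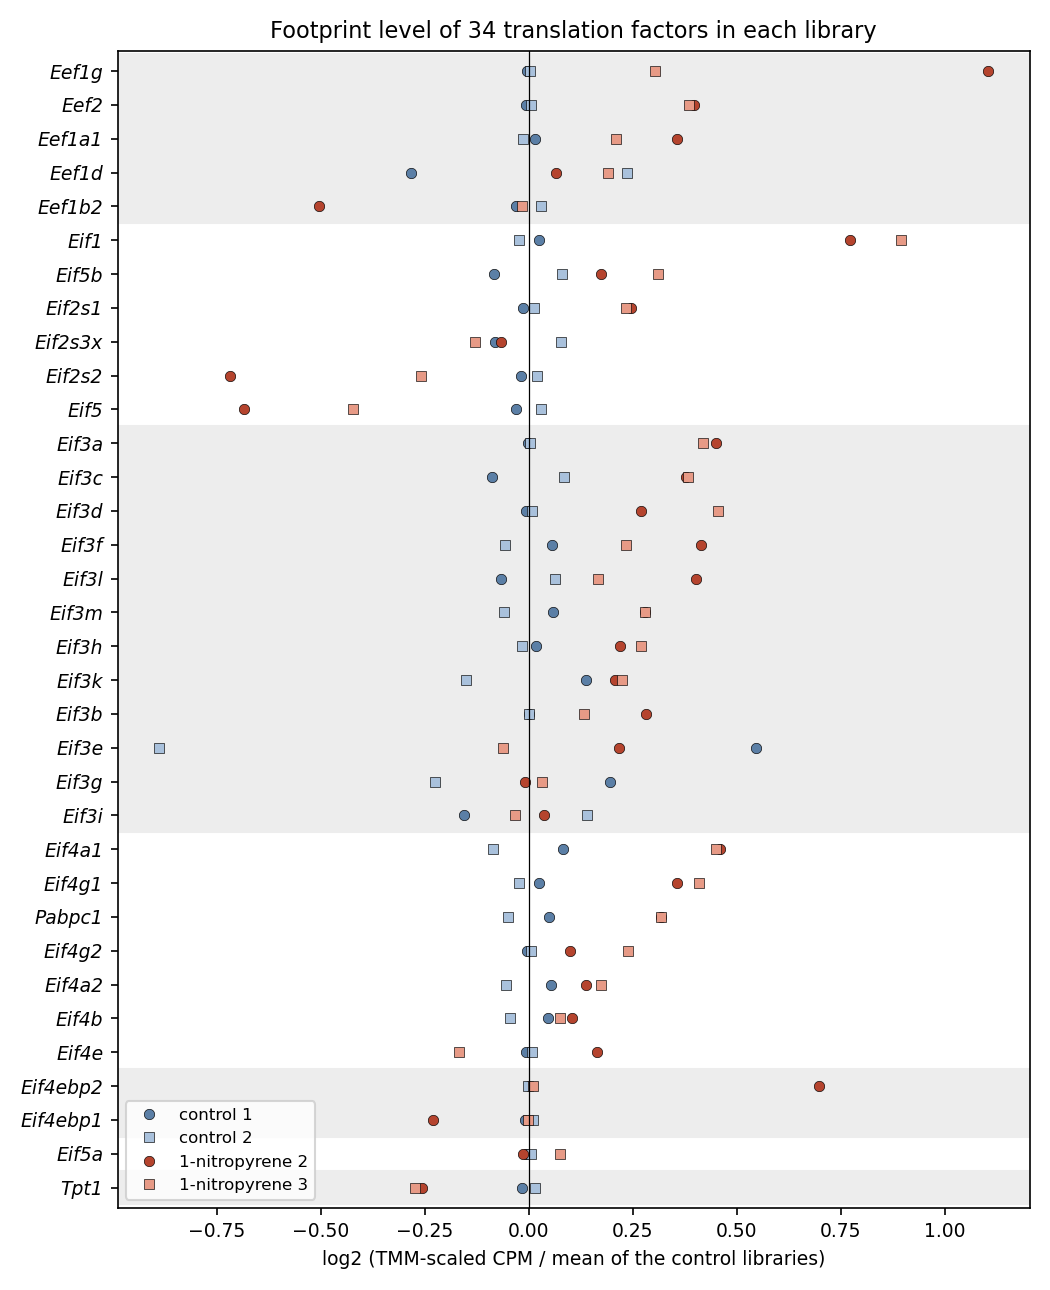
Each row is a factor, ordered by role, and each point is a library's TMM-scaled CPM over the mean of the control libraries, on a log2 scale. Blue points (controls) lie close to 0 for most deeply counted factors, and red points (1-nitropyrene) lie to the right for Eif1, Eif3a and Eif4g1 and to the left for Eif5, Eif2s2 and Tpt1.

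Among the factors that act at the start codon, Eif1 and Eif5 moved in opposite directions. eIF1 keeps the scanning ribosome open and strict about the start codon, whereas eIF5 triggers GTP hydrolysis on eIF2 and so promotes commitment; the pair is known to act against each other. Eif1 (chr11:100319949-100322099, ENSMUSG00000035530) stood at 179 and 173 CPM in control replicates 1 and 2, against 300.3 and 327 CPM in 1-nitropyrene replicates 2 and 3. Both treated libraries lay far above both controls, and its mean rose from 176 ± 4.09 to 314 ± 19.0 CPM (SD, n = 2 each), or 1.78-fold (log2 fold change 0.84 ± 0.106 SE, edgeR adjusted p = 3.41e-13). Among the 34 factors this was the largest change that passed the test.

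Eif5 (chr12:111538101-111546753, ENSMUSG00000021282) stood at 599 and 624 CPM in control replicates 1 and 2, against 380.3 and 456 CPM in 1-nitropyrene replicates 2 and 3. The treated libraries were well below the controls, though they differed from one another more than the controls did. The mean fell from 611 ± 18.2 to 418 ± 53.7 CPM (SD, n = 2 each), which is 1.46-fold lower (log2 fold change -0.54 ± 0.0723 SE, edgeR adjusted p = 4.79e-12). Both calls held under all 12 alternative settings.

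Of the 3 subunits of eIF2, which carries the initiator tRNA, 1 fell and the other two did not pass the test. Eif2s2, the beta subunit (chr2:154871410-154892906, ENSMUSG00000074656), stood at 155 and 159 CPM in control replicates 1 and 2, against 95.5 and 131 CPM in 1-nitropyrene replicates 2 and 3. Replicate 2 was the lower of the treated pair and the groups did not overlap; the mean fell from 157 ± 3.03 to 114 ± 25.4 CPM (SD, n = 2 each) (log2 fold change -0.46 ± 0.143 SE, edgeR adjusted p = 0.0115). Eif2s1, the alpha subunit that stress kinases phosphorylate, stood at 65.4 and 66.6 CPM in control replicates 1 and 2, against 78.3 and 77.6 CPM in 1-nitropyrene replicates 2 and 3, higher in both treated libraries but short of the threshold (log2 fold change 0.24, 95% interval -0.15 to 0.63, edgeR adjusted p = 0.437). Eif2s3x, the X-linked gamma subunit, overlapped between the groups at 122.8 to 141.7 CPM (log2 fold change -0.097, 95% interval -0.38 to 0.19, edgeR adjusted p = 0.711). Eif5b, the GTPase that joins the ribosomal subunits, stood at 226 and 253 CPM in control replicates 1 and 2, against 270.2 and 297 CPM in 1-nitropyrene replicates 2 and 3 (log2 fold change 0.25, 95% interval 0.05 to 0.45, edgeR adjusted p = 0.0712). The Eif2s2 call was lost with the DESeq2 Wald test (adjusted p = 0.243), without control replicate 1 (adjusted p = 0.0732), without control replicate 2 (adjusted p = 0.111) and without 1-nitropyrene replicate 2 (adjusted p = 0.401). In that last fit its log2 fold change was -0.24.

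The ratio of the counts of 2 genes within a library does not depend on any scaling, so it was computed for 6 pairs of related factors, chosen after their values had been seen. Levels of different genes are not compared here, as no gene lengths were used; only the change of a ratio is. Eif1 over Eif5 was 0.299 and 0.277 in the controls, against 0.79 and 0.717 with 1-nitropyrene, a 2.62-fold higher ratio. Eif2s1 over Eif2s2 was 0.422 and 0.418 in the controls, against 0.82 and 0.59 with 1-nitropyrene, 1.66-fold higher. Both ratios were separate between the groups. This follows from the levels above, as the genes of each pair were separate in opposite directions. The intervals for counting error of Eif1 and Eif5 did not touch. Those of Eif2s1 and Eif2s2 did. As a share of its pair, Eif2s1 had an exact 95% interval of 31.3 to 43.3% in 1-nitropyrene replicate 3. In control replicates 1 and 2 it was 24.5 to 35.3% and 24.1 to 35.3%. Eif1 made up 23.0% (exact 95% interval 20.4 to 25.7) and 21.7% (19.1 to 24.5) of the counts of the pair in the controls. With 1-nitropyrene it made up 44.1% (40.6 to 47.7) and 41.8% (38.7 to 44.9). The ratio of Eef2 to Eef1a1 was 1.78 and 1.83 in the controls, against 1.85 and 2.04 with 1-nitropyrene, and that of Eif4ebp1 to Eif4ebp2 1.93 and 1.96 in the controls, against 1.02 and 1.93 with 1-nitropyrene, the latter close to the controls in replicate 3. For each of the 6 pairs the exact two-sided permutation test gave p = 0.33, the smallest possible, and 0.33 after adjustment over the 6 pairs.

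**Figure D3:**
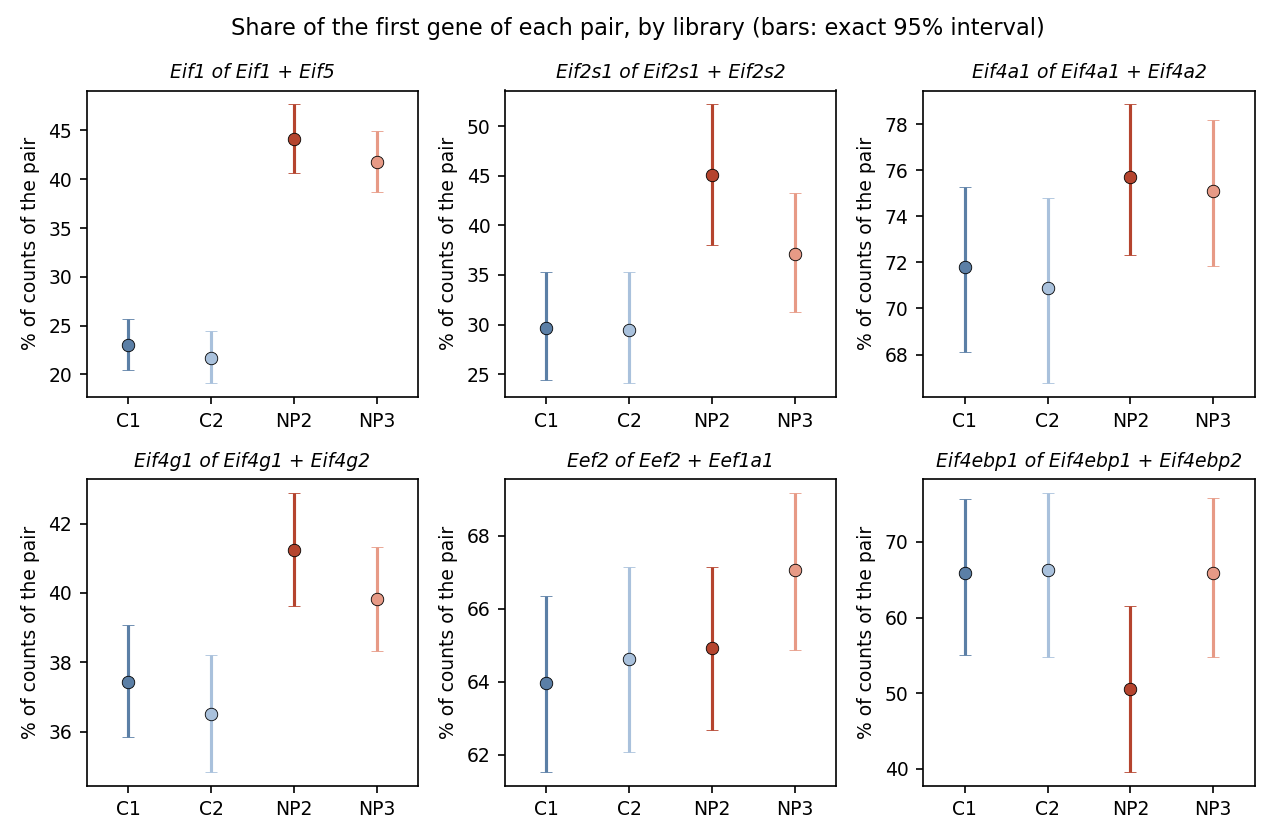
For each of 6 pairs of factors, the share of the first gene in the summed counts of the pair is shown in percent for control replicates 1 and 2 (C1, C2) and 1-nitropyrene replicates 2 and 3 (NP2, NP3); bars are exact 95% binomial intervals and cover counting error only, and the vertical axes do not start at 0. Eif1 goes from 21.7% and 23.0% of its pair in controls to between 41.8% and 44.1% with 1-nitropyrene.

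eIF3, the largest initiation factor, bridges the small ribosomal subunit, eIF2 and eIF4G. Of its 12 subunits tested, 7 rose (Eif3a, Eif3b, Eif3c, Eif3d, Eif3f, Eif3h and Eif3m), 0 fell with edgeR, limma-voom or DESeq2 (0 also at an unadjusted edgeR p under 0.05) and 5 did not pass the test. Over all genes tested 9.68% were called higher. In the top 10% by mean count it was 37.4%, and 8 subunits lie there, 7 of them called. All 12 fold changes were positive with TMM, with a median log2 value of 0.26, although Eif3g, Eif3i and Eif3e were near 0 and turned negative with total counts. Eif3a, the largest subunit and scaffold of the complex, stood at 628 and 631 CPM in control replicates 1 and 2, against 860.5 and 842 CPM in 1-nitropyrene replicates 2 and 3. It had the strongest rise of the complex, 1.35-fold (log2 fold change 0.43 ± 0.0603 SE, edgeR adjusted p = 4.78e-11), with controls that differed by under 3 CPM.

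Eif3c, a second scaffold subunit, stood at 551 and 622 CPM in control replicates 1 and 2, against 762 and 765 CPM in 1-nitropyrene replicates 2 and 3 and rose 1.30-fold (log2 fold change 0.38 ± 0.0631 SE, edgeR adjusted p = 6.67e-08). Its controls were further apart than its treated libraries, yet the groups stayed separate. Eif3m stood at 732 and 675 CPM in control replicates 1 and 2, against 854 and 853 CPM in 1-nitropyrene replicates 2 and 3 and rose 1.21-fold (log2 fold change 0.28 ± 0.0588 SE, edgeR adjusted p = 6.05e-05). Eif3a and Eif3c were called under all 12 alternatives, and Eif3m in 11 of 12, being lost with total counts (adjusted p = 0.141).

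The other 4 calls of the complex were smaller or less deeply counted. Eif3f, which like Eif3h carries an MPN domain, stood at 299.7 and 277 CPM in control replicates 1 and 2, against 384 and 339 CPM in 1-nitropyrene replicates 2 and 3 (log2 fold change 0.32 ± 0.0905 SE, edgeR adjusted p = 0.00436). Eif3h stood at 458 and 447 CPM in control replicates 1 and 2, against 527 and 546 CPM in 1-nitropyrene replicates 2 and 3 (log2 fold change 0.24 ± 0.0734 SE, edgeR adjusted p = 0.0085). In both, each treated library was above each control. Eif3d, a subunit that can itself bind the mRNA cap, stood at 162 and 164 CPM in control replicates 1 and 2, against 196 and 223 CPM in 1-nitropyrene replicates 2 and 3 (log2 fold change 0.37 ± 0.121 SE, edgeR adjusted p = 0.0194). Eif3b, an RNA-binding core subunit, stood at 436 and 435 CPM in control replicates 1 and 2, against 529 and 478 CPM in 1-nitropyrene replicates 2 and 3 and had the smallest rise of the called subunits, 1.15-fold (log2 fold change 0.21 ± 0.0753 SE, edgeR adjusted p = 0.0383).

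These 4 calls did not hold under several settings. With total counts the adjusted p was 0.202 for Eif3f, 0.453 for Eif3h, 0.228 for Eif3d and 0.718 for Eif3b, and with the DESeq2 Wald test 0.141, 0.16, 0.232 and 0.287. Without control replicate 1 it was 0.0611 for Eif3h, 0.135 for Eif3d and 0.18 for Eif3b. Without control replicate 2 it was 0.118 for Eif3f, 0.0955 for Eif3h, 0.0978 for Eif3d and 0.163 for Eif3b. Leaving out 1-nitropyrene replicate 2 gave 0.197 for Eif3f, 0.0539 for Eif3h and 0.349 for Eif3b, and leaving out 1-nitropyrene replicate 3 gave 0.108 for Eif3h and 0.278 for Eif3d (adjusted p, edgeR). The count of eIF3 subunits called higher was thus 7 with TMM, 2 with total counts and 3 with DESeq2. Over all genes given an adjusted p, 9.68%, 5.31% and 8.45% were called higher, in the same order.

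Of the 5 subunits without a call, Eif3l and Eif3k were higher in each treated library than in each control. Eif3l stood at 113 and 123 CPM in control replicates 1 and 2, against 156 and 132 CPM in 1-nitropyrene replicates 2 and 3 (log2 fold change 0.29, 95% interval 0.0022 to 0.57, edgeR adjusted p = 0.163). Eif3k stood at 116 and 95.3 CPM in control replicates 1 and 2, against 122 and 124 CPM in 1-nitropyrene replicates 2 and 3 (log2 fold change 0.21, 95% interval -0.096 to 0.52, edgeR adjusted p = 0.377). Eif3g and Eif3i, both of the conserved core, overlapped fully between the groups, with log2 fold changes of 0.0049 (95% interval -0.26 to 0.27) and 0.0049 (95% interval -0.16 to 0.17). The interval of Eif3i, with mean counts of 456, does not reach the size of the Eif3a change. Eif3e rested on 27 and 9 counts in control replicates 1 and 2, against 19 and 17 in 1-nitropyrene replicates 2 and 3, and its interval of -0.78 to 0.89 is too wide to show a change of the size seen in Eif3a.

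Within the summed eIF3 counts of a library, which again need no scaling, Eif3a made up 15.6% and 15.7% in the controls, against 17.4% and 17.4% with 1-nitropyrene. The share of Eif3i went from 8.29% and 10.2% to 7.71% and 7.51%. Its own level was flat, with means of 371 CPM in control and 372 CPM in 1-nitropyrene cells. Shares of a fixed sum cannot all rise, so a lower share is not by itself a lower level. The share of Eif3m overlapped between the groups, at 16.8% to 18.2%. For Eif3a and Eif3i the exact two-sided permutation test gave p = 0.33, the smallest possible. Eif3b and Eif3g reached the same p, and the other subunits did not. All eIF3 counts together were 0.419% ± 0.000212 of control libraries and 0.455% ± 0.00845 of 1-nitropyrene libraries (SD, n = 2 each).

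**Figure D4:**
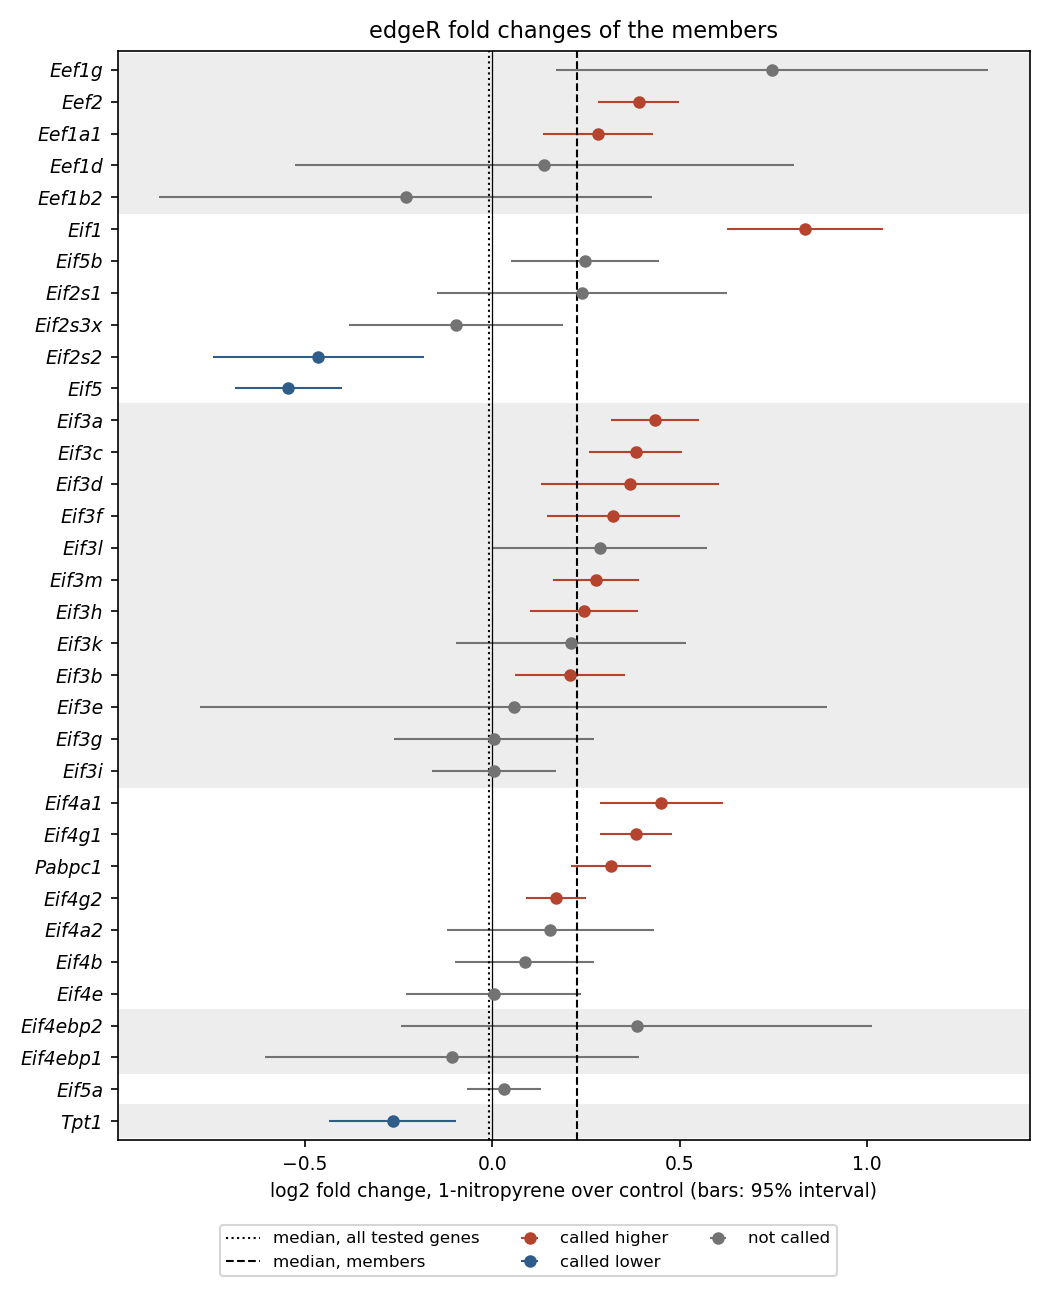
Points are edgeR log2 fold changes of 1-nitropyrene over control for the 34 factors, ordered by role, with bars for the 95% interval; red and blue mark calls, the dotted line the median of all genes tested (-0.0076) and the dashed line the median of the factors (0.23). All 12 eIF3 subunits lie at or right of 0 with TMM scaling, and Eif3e, Eef1d, Eef1b2 and Eif4ebp2 have the widest bars.

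The proteins that bind the cap and unwind the mRNA leader gave 4 rises, 0 falls with edgeR, limma-voom or DESeq2 (0 also at an unadjusted edgeR p under 0.05) and 3 genes without a call. Over all genes tested 9.68% were called higher. In the top 10% by mean count it was 37.4%, and 6 of these factors lie there, 4 of them called. Eif4g1, the scaffold that joins eIF4E, eIF4A and eIF3, stood at 1011 and 979 CPM in control replicates 1 and 2, against 1274 and 1322 CPM in 1-nitropyrene replicates 2 and 3. The groups were widely separate, and it rose 1.30-fold (log2 fold change 0.38 ± 0.0491 SE, edgeR adjusted p = 5.26e-13). Eif4g2, a relative of eIF4G that lacks the eIF4E binding site, stood at 1688 and 1701 CPM in control replicates 1 and 2, against 1815 and 1998 CPM in 1-nitropyrene replicates 2 and 3. It was the most deeply counted of the 34 genes, with 2016 to 2522 counts a library, and its 1.13-fold rise was the smallest called (log2 fold change 0.17 ± 0.0405 SE, edgeR adjusted p = 4.70e-04). With total counts the Eif4g2 call was lost (adjusted p = 0.897), as it was with DESeq2 (adjusted p = 0.0595) and without 1-nitropyrene replicate 3 (adjusted p = 0.186). The ratio of Eif4g1 to Eif4g2 was 0.599 and 0.575 in the controls, against 0.702 and 0.662 with 1-nitropyrene, with no overlap of the groups. The counting intervals of control replicate 1 and 1-nitropyrene replicate 3 did overlap.

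The helicase eIF4A comes as 2 closely related proteins. Eif4a1 stood at 345 and 306 CPM in control replicates 1 and 2, against 447 and 444 CPM in 1-nitropyrene replicates 2 and 3 and rose 1.37-fold (log2 fold change 0.45 ± 0.0833 SE, edgeR adjusted p = 2.25e-06). Eif4a2 stood at 135 and 126 CPM in control replicates 1 and 2, against 144 and 147 CPM in 1-nitropyrene replicates 2 and 3, which differed in the same direction without passing the test (log2 fold change 0.16, 95% interval -0.12 to 0.43, edgeR adjusted p = 0.491). Their ratio was 2.54 and 2.44 in the controls, against 3.11 and 3.02 with 1-nitropyrene, 1.23-fold higher, though the counting intervals of the single libraries overlapped. As the sequences of the genes are alike and the handling of reads that match both is not known, their counts are uncertain.

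Pabpc1, the cytoplasmic poly(A)-binding protein that contacts eIF4G, stood at 840.4 and 785 CPM in control replicates 1 and 2, against 1013 and 1013 CPM in 1-nitropyrene replicates 2 and 3. Its treated libraries were nearly equal and both above the controls, and the mean rose from 813 ± 38.9 to 1013 ± 0.188 CPM (SD, n = 2 each) (log2 fold change 0.32 ± 0.0545 SE, edgeR adjusted p = 2.97e-07). Eif4b, a cofactor of the helicase, stood at 297 and 278 CPM in control replicates 1 and 2, against 309 and 303 CPM in 1-nitropyrene replicates 2 and 3, higher in each treated library but with a log2 fold change of only 0.087 (95% interval -0.098 to 0.27). Eif4e, the cap-binding protein itself, was at 189 and 191 CPM in control replicates 1 and 2, against 213 and 169 CPM in 1-nitropyrene replicates 2 and 3. Control values lay between those of the treated libraries, and the interval of its change ran from -0.23 to 0.24 on the log2 scale. Eif4a1, Eif4g1 and Pabpc1 were called under all 12 alternatives.

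The 2 inhibitors that hold eIF4E away from eIF4G when mTOR is inactive were thinly counted and neither passed the test. Eif4ebp1 had 58 and 53 counts in control replicates 1 and 2, against 44 and 56 in 1-nitropyrene replicates 2 and 3, with overlapping groups (log2 fold change -0.11, 95% interval -0.61 to 0.39, edgeR adjusted p = 0.828). Eif4ebp2 had 30 and 27 counts in control replicates 1 and 2, against 43 and 29 in 1-nitropyrene replicates 2 and 3; it was high in replicate 2 of the treated pair alone (log2 fold change 0.39, 95% interval -0.24 to 1.01, edgeR adjusted p = 0.44). At this depth a change of the size seen in Eif1 was outside the interval of Eif4ebp1 but inside that of Eif4ebp2.

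Of the 5 elongation factors, Eef1a1 and Eef2 rose and the 3 subunits of the exchange complex did not pass the test. Eef2, the translocase (chr10:81176631-81182509, ENSMUSG00000034994), stood at 763 and 769 CPM in control replicates 1 and 2, against 1008 and 1001 CPM in 1-nitropyrene replicates 2 and 3. Replicates of a group were within 8 CPM of each other, and the mean rose from 766 ± 4.62 to 1005 ± 5.17 CPM (SD, n = 2 each), or 1.31-fold (log2 fold change 0.39 ± 0.0553 SE, edgeR adjusted p = 1.22e-10); the call held under all 12 alternatives. Eef1a1, which brings aminoacyl-tRNA to the ribosome (chr9:78478453-78481724, ENSMUSG00000037742), stood at 429.7 and 421 CPM in control replicates 1 and 2, against 545 and 492 CPM in 1-nitropyrene replicates 2 and 3 and rose 1.22-fold (log2 fold change 0.28 ± 0.0752 SE, edgeR adjusted p = 0.00228). The Eef1a1 call was lost with total counts (adjusted p = 0.25), with DESeq2 (adjusted p = 0.105) and without 1-nitropyrene replicate 2 (adjusted p = 0.145).

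As a share of all counts, Eef1a1 held 0.0448% and 0.0439% of control replicates 1 and 2 and 0.0509% and 0.0458% of 1-nitropyrene replicates 2 and 3 (exact two-sided permutation test, p = 0.33, the smallest possible). The gene table lists 2 pseudogenes named after Eef1a1, 7 after Tpt1, 3 after Eif1 and 1 each after Eef2 and Eif2s3x. How reads that match such copies were counted is not given in the sources used here, so the counts of these 5 genes are uncertain. Copies under other names were not looked for, so the other factors may have some too. The table also shows another gene overlapping 16 of the 34, often a small nucleolar RNA within an intron, as for Eef2 (Snord37), Eif5 (Snora28) and Tpt1 (Snora31). Whether these contributed counts was not tested.

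Eef1b2 and Eef1d, which recharge eEF1A with GTP, and their partner Eef1g had 21 to 61 counts a library. Eef1g had 32 and 29 counts in control replicates 1 and 2, against 61 and 38 in 1-nitropyrene replicates 2 and 3, so that its treated libraries were higher but far apart (log2 fold change 0.75, 95% interval 0.17 to 1.32, edgeR adjusted p = 0.0601). Without 1-nitropyrene replicate 3 it passed the test (log2 fold change 1.10, adjusted p = 0.0107), and without 1-nitropyrene replicate 2 its log2 fold change was 0.32 (adjusted p = 0.623); it was called in 1 of 11 alternatives. Eef1b2 and Eef1d overlapped between the groups, with log2 fold changes of -0.23 (95% interval -0.89 to 0.43) and 0.14 (95% interval -0.53 to 0.80).

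Eif5a, the hypusine-bearing factor that relieves stalled ribosomes, was deeply counted and close to level, at 1058 and 1067 CPM in control replicates 1 and 2, against 1052 and 1120.0 CPM in 1-nitropyrene replicates 2 and 3 (log2 fold change 0.032, 95% interval -0.067 to 0.13, edgeR adjusted p = 0.723). Its interval excludes changes as large as those of Eef2 or Pabpc1. With total counts it was called lower instead (log2 fold change -0.13, adjusted p = 0.0442).

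Tpt1, whose mRNA is a standard example of a TOP message (chr14:75845256-75848303, ENSMUSG00000060126), stood at 386 and 394 CPM in control replicates 1 and 2, against 326 and 322 CPM in 1-nitropyrene replicates 2 and 3. Its replicates lay close together and the groups were separate, and it fell from 389.8 ± 5.92 to 324 ± 2.65 CPM (SD, n = 2 each) (log2 fold change -0.27 ± 0.0863 SE, edgeR adjusted p = 0.0179). The call was lost with DESeq2 (adjusted p = 0.269), and with edgeR in each fit that left out a library, with adjusted p of 0.0956 without control replicate 1, 0.163 without control replicate 2, 0.141 without 1-nitropyrene replicate 2 and 0.12 without 1-nitropyrene replicate 3. In all 12 alternatives its value stayed negative, between -0.43 and -0.24.

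Factors known from textbooks as TOP messages were called in both directions. Of 11 such genes, 5 rose (Eef1a1, Eef2, Eif3f, Eif3h and Pabpc1), 1 fell (Tpt1) and 5 did not pass the test, with a median log2 fold change of 0.24. Of the other 23, 9 rose, 2 fell and 12 did not pass, with a median of 0.21. By the motif at the annotated start, 4 of the 7 genes that hold it rose, 0 fell with edgeR and 3 did not pass (median 0.28), and of the 19 without it 7 rose, 3 fell and 9 did not pass (median 0.24). The 8 genes with no promoter found, of which 3 rose and 5 did not pass, include 5 of the 11 TOP messages. Of the other TOP messages, 2 hold the motif (Eef1a1 and Eif3f) and 4 do not. Genes without the motif are thus not a set of non-TOP messages. No difference between these sets was tested. Over all genes tested 9.68% were called higher and 7.58% lower. In the top 10% by mean count it was 37.4% and 12.3%. All 6 called TOP messages lie at that depth, as do 10 of the 11 called among the other 23.

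As parts of the summed counts of the 34 genes, the start codon and initiator tRNA factors took 11.0% ± 0.410 in control and 9.12% ± 0.674 in 1-nitropyrene cells (SD, n = 2 each). Tpt1 took 3.09% ± 0.0561 and 2.22% ± 0.0418, and eIF5A 8.42% ± 0.0769 and 7.43% ± 0.252. The eIF3 subunits took 31.8% ± 0.0582 and 33.4% ± 0.862, and the elongation factors 10.0% ± 0.0683 and 11.0% ± 0.471. The proteins of cap binding, unwinding and poly(A) binding took 35.1% ± 0.674 and 36.3% ± 0.490, and the eIF4E inhibitors 0.533% ± 0.00473 and 0.487% ± 0.0416. In all 7 role groups control and treated libraries did not overlap, with an exact two-sided permutation p of 0.33 (0.33 after adjustment over the 7 role groups). Among single genes tested, the CPM values of 57.3% did not overlap either. The eIF4E inhibitors had only 27 to 58 counts a gene and library, so their small SDs from 2 libraries each are a poor guide to their spread. These parts share a fixed sum, so a lower share need not be a lower level. Eif5a itself had a log2 fold change of 0.032. Among the start codon factors Eif1 rose while Eif5 and Eif2s2 fell.

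The calls that held under every one of the 12 alternatives were 8: Eef2, Eif1, Eif3a, Eif3c, Eif4a1, Eif4g1 and Pabpc1 as higher and Eif5 as lower. The number called was 17 with all libraries, 12 without control replicate 1, 11 without control replicate 2, 11 without 1-nitropyrene replicate 2 and 14 without 1-nitropyrene replicate 3. Over all genes tested the share called fell too, from 17.3% with all libraries to 9.21%, 8.84%, 6.78% and 9.99% in those 4 fits, in the same order. With the DESeq2 Wald test it was 9 of the 28 factors given an adjusted p, 8 higher and 1 lower, against 8.45% and 2.73% of the 2818 genes given one.

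**Figure D5:**
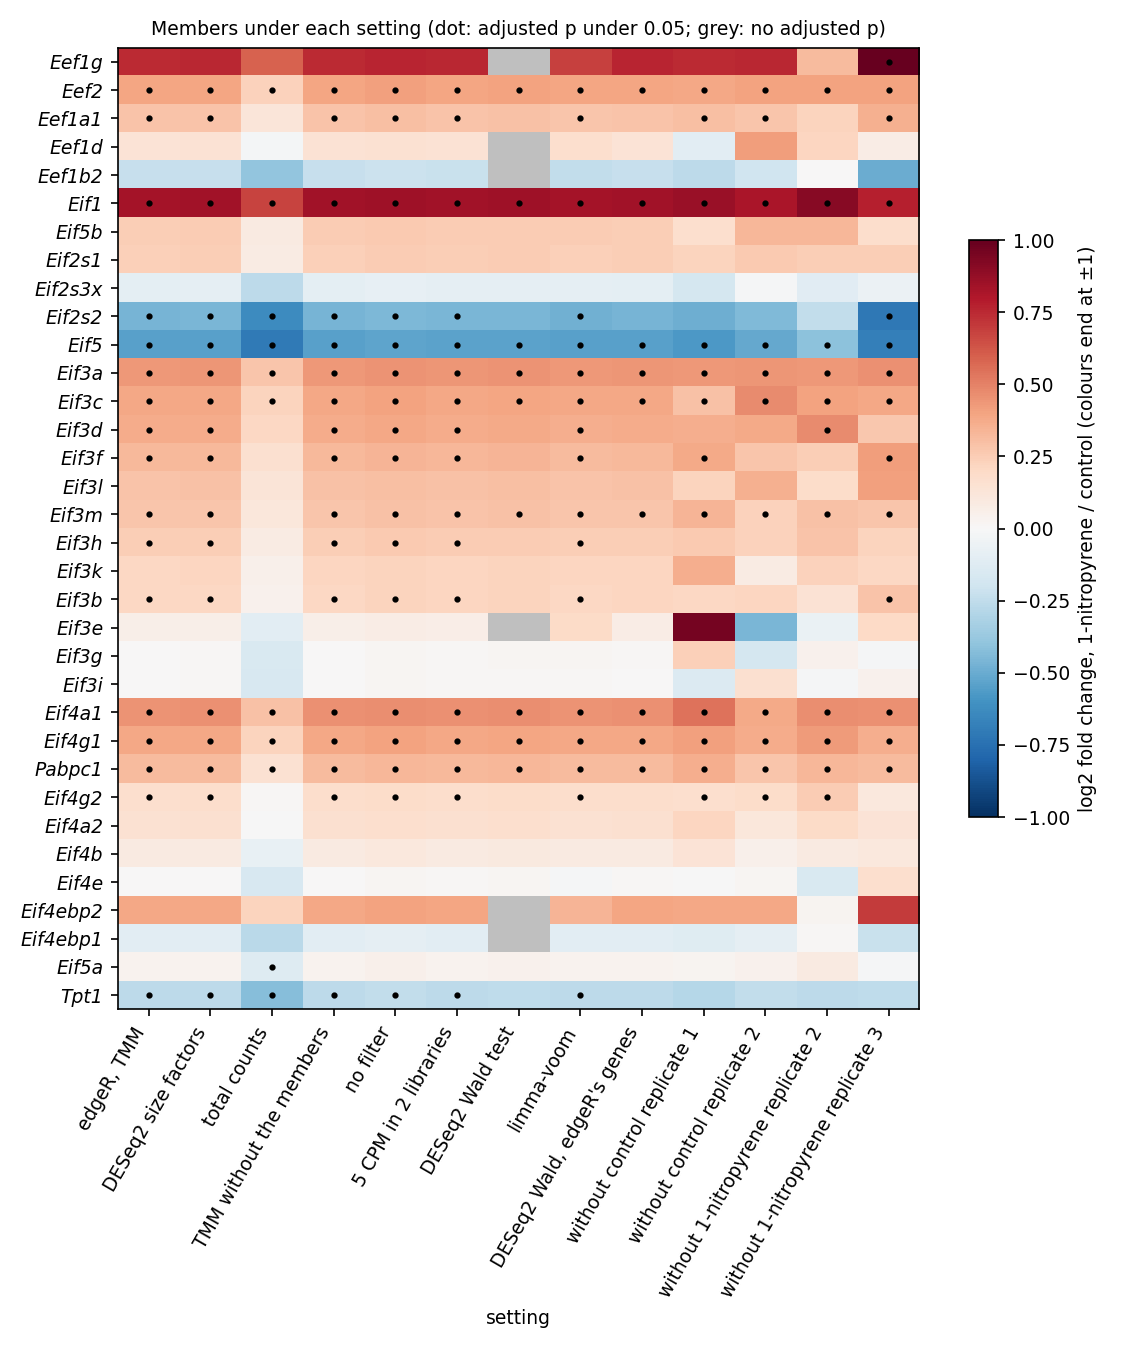
Rows are the 34 factors and columns the settings, from TMM with edgeR on the left to the fits without 1 library on the right; colour gives the log2 fold change, a dot an adjusted p under 0.05 and grey no adjusted p. Rows with a dot in every column are Eef2, Eif1, Eif3a, Eif3c, Eif4a1, Eif4g1, Pabpc1 and Eif5.

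The libraries held 1261372 and 1136145 counts (control) and 1243186 and 1357034 counts (1-nitropyrene). A single count was worth 0.761 to 0.860 CPM. Pairs within a group differed by more than counting noise, with chi-square statistics per degree of freedom of 1.55 and 1.61, so none was taken as a copy of another; across groups they were 5.82 to 6.02. The labelled cell type could not be checked against its markers, since the table pairs no symbols with its IDs.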

How the data were processed

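Ribosome footprints were measured in 4 libraries of MLE-12 cells, 2 control and 2 with 1-nitropyrene. The authors deposited whole-number counts by Ensembl gene ID, without normalization. The submitters' processing notes name mm10 as the build and cutadapt, Bowtie, HISAT2, featureCounts and DESeq2 as tools; their versions and settings, the annotation, strand and multiply matching reads are not covered there. The members and lists were chosen with earlier results of these data known. All 34 members are named, with full statistics for called members, the 3 with the highest mean CPM and both eIF4E inhibitors.

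Genes were kept with filterByExpr (minimum count 10, minimum total 15), leaving 7719 of 53465 IDs and 98.6% of all counts. TMM scaling was followed by the quasi-likelihood F test of edgeR 4.0.16 in R 4.3.3, with Benjamini-Hochberg adjustment over all 7719. The prior degrees of freedom were infinite, so each gene took its spread from the trend. Standard errors and 95% intervals were derived from the F statistic. The fit was tested on simulated data. A count of 0 allows up to 3 counts, or 2.28 to 2.58 CPM. All 34 members matched the GRCm38.p6 gene table by symbol. Other settings were size factors from DESeq2, total counts, TMM without the members, no filter, 5 CPM in 2 libraries, DESeq2 1.42.0, limma-voom (limma 3.58.1) and leaving out each library; DESeq2 on the genes edgeR tested was added after seeing the data. Intervals cover counting error only where named so, as reads are not independent molecules.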

Additional observations from a re-analysis of the deposited data

How the results depend on the processing

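DESeq2's size factors, TMM without the members, no filter, 5 CPM in 2 libraries and limma-voom kept 17 calls, 14 higher and 3 lower, the same genes in each. Total counts gave 11 calls (7 higher, 4 lower) and a median log2 fold change of 0.064. The DESeq2 Wald test gave 9 calls (8 higher, 1 lower), and the same numbers on the genes edgeR tested. Leaving out 1 library gave 11 to 14 calls, 10 to 12 higher and 1 to 2 lower, at medians of 0.21 to 0.23, and over all genes tested 382 to 480 higher and 190 to 354 lower calls against 747 and 585 with all libraries, with fewer samples by construction; the lone sample left in a group is then assumed to vary like the other group. Outside the leading pair of IDs, the difference in the factors' share was 0.160 percentage points (0.0466 over all counts), and that of Eef1a1 0.00899 (0.00398). With the motif within 5 bases of the start 6 of 26 genes held it (23.1%, against 19.7% of all genes in the promoter table), the opposite order to that within 10 bases (26.9% against 33.3%).

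Uncalled members changed sign with total counts, to -0.021 for Eef1d, -0.10 for Eif3e, -0.16 for Eif3g, -0.16 for Eif3i, -0.0059 for Eif4a2, -0.074 for Eif4b, -0.16 for Eif4e, -0.13 for Eif5a; of these Eif5a was called, and Eif4e was -0.0083 with limma-voom. Leaving out 1 library turned the sign in at least 1 fit for 8 members, whose values ran from -0.50 to 0.00036 for Eef1b2, -0.10 to 0.42 for Eef1d, -0.46 to 0.96 for Eif3e, -0.18 to 0.24 for Eif3g, -0.14 to 0.16 for Eif3i, -0.15 to 0.17 for Eif4e, -0.23 to 0.014 for Eif4ebp1, -0.012 to 0.091 for Eif5a. No paired analysis was possible because control and 1-nitropyrene samples have a single replicate number, 2, in common. Levels per coding length, the lists of other translation genes and the cell type markers were not run, as no protein table was given and the IDs could not be matched to symbols. Depth limits Eif3e, Eef1b2, Eef1d, Eef1g, Eif4ebp1 and Eif4ebp2, whose mean counts were 18.0 to 52.8.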
